A study of Mus musculus with 24 samples.

Results

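The genes of the major histocompatibility complex (MHC) and of antigen presentation were examined in liver RNA of 24 mice. Members are all genes whose GENCODE M21 symbol starts with H2-, the mouse MHC prefix, together with B2m, Tap1, Tap2, Tapbp, Tapbpl, Erap1, Nlrc5, Cd74 and Ciita. GENCODE M21 holds 54 such genes, of which 42 were among the 22392 genes measured, 30 of class I, 11 of class II and 1 (H2-Ke6) of neither class. The 8 CT mice were sham-injected and carried no tumour. The 8 C26 mice carried a transplant of the C26 colon carcinoma, a mouse tumour line used as a model of cancer wasting, and received no treatment. The 8 C26-CHO mice were injected with C26 cells and fed cholestyramine, an intestinal bile acid binder, as 2% (w/w) of their chow between day 1 and day 10. All mice were CD2F1, a hybrid of the BALB/c and DBA/2 strains. Each library came from 1 liver, and the labels used here give no age, sex, tumour size or sequencing batch.

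MHC class I molecules show peptides from inside a cell to CD8 T cells and to natural killer (NK) cells. Each consists of a heavy chain (H2-K, H2-D, or one of the less variable H2-Q, H2-T and H2-M chains) and the light chain beta-2 microglobulin, and takes up its peptide in the endoplasmic reticulum after the TAP transporter has pumped it in. Nearly all cells make class I, hepatocytes included, and the hepatocyte is the known source of H2-Q10, a secreted class I molecule of blood plasma. Class II molecules show peptides from engulfed material to CD4 T cells and are made chiefly by B cells, dendritic cells and activated macrophages. Interferon gamma induces both classes, with NLRC5 and CIITA as the transcriptional activators of class I and class II.

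The promoters of 6 members on which the results below turn are shown in the reference sequence of RefSeq (GRCm38.p6), from 250 bases before the annotated start of transcription to 10 bases after it, 5′ to 3′ on the strand of the gene. Capitals mark matches to 6 short motifs searched on both strands: the CCAAT box (CCAAT), the Y box (CTGATTGG, which contains a CCAAT box on the other strand), the kappa B site of the class I enhancer (GGGATTCCC), the core of the interferon regulatory factor site in its class I spacing (GAANNGAAA) and in its B2m spacing (GAAANNGAA), and the core of the X box of class II genes (AGCAACNG). H2-K1 lies on the minus strand at chr17:34000324-34000583, H2-D1 on the plus strand at chr17:35262844-35263103, H2-Q10 on the plus strand at chr17:35469839-35470098 and B2m on the plus strand at chr2:122147437-122147696. The class II genes H2-Aa, on the minus strand at chr17:34287814-34288073, and H2-Eb1, on the plus strand at chr17:34305617-34305876, follow.
H2-K1: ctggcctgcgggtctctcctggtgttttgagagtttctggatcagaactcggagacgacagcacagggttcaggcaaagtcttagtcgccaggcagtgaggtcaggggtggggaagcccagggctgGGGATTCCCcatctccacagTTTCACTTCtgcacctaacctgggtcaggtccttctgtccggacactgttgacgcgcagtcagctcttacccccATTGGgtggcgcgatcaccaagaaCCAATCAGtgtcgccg
H2-D1: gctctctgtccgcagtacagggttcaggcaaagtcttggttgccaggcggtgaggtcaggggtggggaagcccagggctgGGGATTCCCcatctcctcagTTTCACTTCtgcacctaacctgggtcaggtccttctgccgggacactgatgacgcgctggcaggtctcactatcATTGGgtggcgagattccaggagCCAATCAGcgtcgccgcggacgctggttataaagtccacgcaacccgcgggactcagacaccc
H2-Q10: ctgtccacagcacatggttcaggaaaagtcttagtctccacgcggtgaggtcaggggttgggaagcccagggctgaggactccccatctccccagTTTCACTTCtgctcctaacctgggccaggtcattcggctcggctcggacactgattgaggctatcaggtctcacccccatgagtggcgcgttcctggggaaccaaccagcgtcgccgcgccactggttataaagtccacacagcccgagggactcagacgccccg
B2m: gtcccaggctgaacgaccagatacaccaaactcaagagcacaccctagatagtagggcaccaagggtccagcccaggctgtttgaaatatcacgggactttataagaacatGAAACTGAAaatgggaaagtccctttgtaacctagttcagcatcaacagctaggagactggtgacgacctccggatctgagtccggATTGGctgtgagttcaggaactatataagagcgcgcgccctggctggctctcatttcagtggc
H2-Aa: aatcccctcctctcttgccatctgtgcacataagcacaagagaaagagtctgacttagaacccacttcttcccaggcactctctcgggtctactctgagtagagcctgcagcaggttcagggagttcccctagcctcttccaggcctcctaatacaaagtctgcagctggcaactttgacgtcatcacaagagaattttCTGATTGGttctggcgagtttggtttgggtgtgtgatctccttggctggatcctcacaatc
H2-Eb1: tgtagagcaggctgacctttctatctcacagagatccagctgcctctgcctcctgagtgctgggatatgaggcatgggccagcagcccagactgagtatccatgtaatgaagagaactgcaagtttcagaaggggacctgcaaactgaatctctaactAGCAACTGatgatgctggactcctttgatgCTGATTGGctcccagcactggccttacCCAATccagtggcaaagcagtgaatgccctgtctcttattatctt

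The 3 class I heavy chains in this set gave 3 different results in tumour-bearing mice, and a link of these results to their promoters was not tested. The promoters of H2-K1 and H2-D1 held the kappa B site, the interferon regulatory factor core, the CCAAT box and the Y box. Those of H2-Q6 and H2-Q7 held them too, although these genes were lower in C26 than in CT, where H2-D1 was higher. H2-Q10 matched only the interferon regulatory factor core, starting 155 bases before the start. B2m matched the CCAAT box at -53 and the interferon regulatory factor core in its own spacing at -139. The class II genes H2-Aa and H2-Eb1 matched the Y box too, and H2-Eb1 also the X box core. Among 32851 promoter windows of 300 bases, from 250 bases before a start to 50 after it, 37.4% held CCAAT, 4.1% the Y box, 0.353% the kappa B site, 7.52% and 8.56% the interferon regulatory factor core in the class I and B2m spacing, and 5.14% the X box core. Windows were found for 27 of the 42 measured members. A match describes letters of the reference strain and was not tested as a binding site.

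Values are read counts that the authors divided by a size factor of each library, written below as normalized values. Between 19.9 M and 30.5 M reads were recovered from each library. A member was tested when its mean over the 24 libraries was at least 10, which 33 of the 42 were: 24 of class I and 9 of class II. Tests are contrasts of 1 limma fit of log2(value + 1) over all 3 groups, with p adjusted by the Benjamini-Hochberg method over all 14040 tested genes, and a gene was called when its adjusted p lay under 0.05. Fold changes are log2 differences of that quantity, each with the SE (standard error) that limma estimates. On the first principal component of all tested genes the CT libraries lay between -83.15 and -75.36, the C26 libraries between 28.81 and 54.62 and 7 C26-CHO libraries between 22.32 and 50.48, while C26-CHO 1 lay apart from its group at -13.41. Results that rest on C26-CHO 1 are therefore also given without it. Hepatocyte markers were the most abundant of the cell type markers examined, led in CT by albumin (Alb) and Serpina1a with means of 1034280.0 and 289387 (n = 8).

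Several properties of these genes limit the single values. The reference genome is of strain C57BL/6, which carries the b haplotype of the MHC, whereas both parents of CD2F1 carry the d haplotype, so reads of d alleles were aligned to b sequences. H2-L, a class I gene of the d haplotype, is no gene of that reference, and H2-Ea-ps is annotated as a polymorphic pseudogene because it is silent in b, although d mice make a working E alpha chain from it. Where reads of H2-L were counted is not known, and the values of H2-D1 and H2-K1 may include some of them. The H2-Q and H2-T genes and the pseudogenes H2-K2, H2-Bl and H2-T-ps are near copies of each other, and how shared reads were counted is not given in the sources used here, so their values as single genes are uncertain. Changes between groups compare the same alleles throughout, since all mice were of 1 strain.

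The 5 most abundant members in CT livers were of class I when set per kilobase (kb) of exon, the scale on which genes can be compared. B2m had a mean normalized value of 22276 per kb, H2-Q10 4930.4, H2-D1 3346, H2-K1 2059 and H2-T23, which encodes the non-classical chain Qa-1, 1290.3. The most abundant class II transcript, the invariant chain Cd74, had 899.6 per kb, followed by the E alpha gene H2-Ea-ps with 587, H2-Eb1 with 355, H2-Ab1 with 268 and H2-Aa with 147. The other tested class I genes lay below Cd74 on this scale, for example H2-Q4 with 542, H2-T22 with 342, H2-Q7 with 129 and H2-Bl with 28.9 per kb. Ciita was at 5.51 per kb, at the low end of the tested members.

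The comparison of C26 with CT asks what the tumour changed in the liver. Class II fell as a whole: all 9 tested genes were lower in C26 livers, with log2 fold changes from -2.20 (Cd74) to -0.79 (H2-DMa). Class I divided. H2-D1 rose, H2-K1 was not called, and H2-Q10, B2m, H2-T23 and H2-T24 fell. Over all tested genes 66.3% were called in this comparison, 33.3% higher and 32.9% lower, so single calls are common here and the class I count of 5 higher and 10 lower of 24 lies near that background. The class II count was 0 higher and 9 lower of 9, with a median of -1.93, and the class I median was -0.18, against 0.006 for all genes tested.

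**Figure D1:**
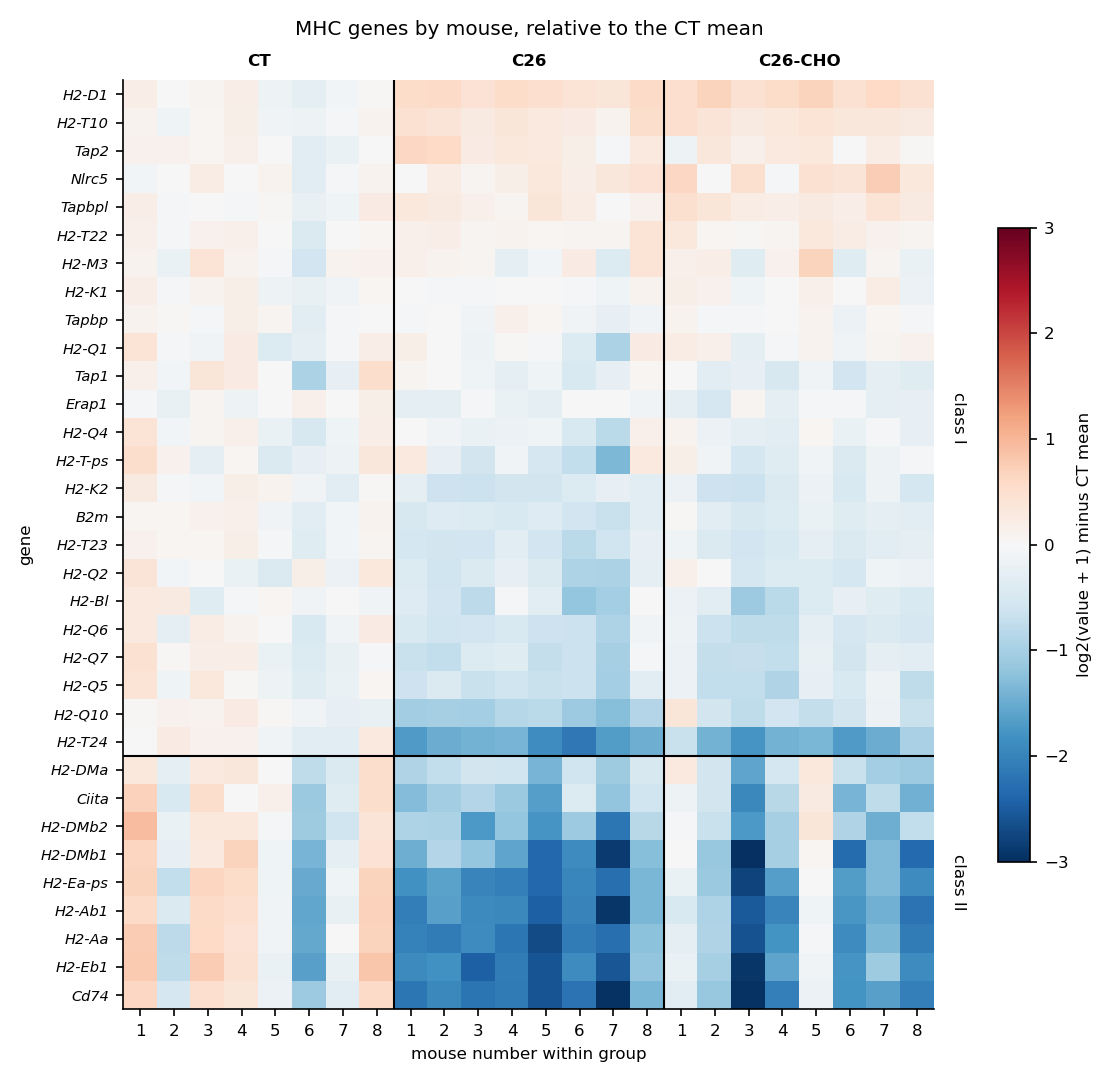
Heat map of the 33 tested genes (rows, class I above class II, each ordered by the C26 vs CT difference) in the 24 mice (columns), coloured by log2(normalized value + 1) minus the CT mean of the gene. The class II rows are blue in all C26 mice and in most C26-CHO mice and paler in C26-CHO 1 and 5, CT 6 is the bluest CT mouse in those rows, and H2-D1 is red in all tumour-bearing mice.

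The classical class I chains H2-K1 and H2-D1, which present peptides to CD8 T cells, moved apart in the counted values, which may include reads of H2-L. H2-D1 (chromosome 17 at 35262730 to 35267499, plus strand) had 7069, 8644 and 9841 as its lowest, median and highest normalized value in CT, 11104, 12342 and 12842 in C26 and 11707, 12374 and 13654 in C26-CHO. Every tumour-bearing mouse lay above every CT mouse. The C26 vs CT difference was 0.49 (SE 0.0618, adjusted p = 1.08e-07), a 1.41-fold rise. H2-K1 (chromosome 17 at 33996017 to 34000347, minus strand) had 5151, 6046 and 6865 in CT, 5468, 5952 and 6481 in C26 and 5350.3, 6305 and 7041 in C26-CHO. Its groups overlapped fully, and its difference of -0.02 had a 95% interval of -0.16 to 0.11 (adjusted p = 0.773). Under quantile normalization, which forces all libraries to 1 distribution, H2-K1 had 0.24 and was called (adjusted p = 0.00117), and H2-D1 had 0.83. Scaled to library totals H2-K1 had -0.37 and was called lower (adjusted p = 6.94e-05), so these 2 scalings gave calls in opposite directions. Relative to the median of all genes on the library total scale it had -0.03. The ratio of H2-D1 to H2-K1 within a library, which a factor common to all genes of a library does not change, ran from 1.37 to 1.47 in CT, from 1.98 to 2.16 in C26 and from 1.78 to 2.21 in C26-CHO, with no overlap between CT and the tumour-bearing groups.

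H2-Q10, the secreted chain of hepatocytes (chromosome 17 at 35470089 to 35474563, plus strand), had 18100.1, 21899 and 25259 in CT, 8725, 10665 and 12075 in C26 and 12541, 14472 and 27308 in C26-CHO. No C26 mouse reached the lowest CT mouse. It fell by 1.00 on the log2 scale in C26 (SE 0.119, adjusted p = 5.12e-08), to 0.501 of its CT level. Its share of the summed value of the 17 tested heavy chain genes, not scaled by length, ran from 42.3 to 50.5% in CT and from 27.7 to 32.2% in C26. The sum of the other 16 genes had 19412, 24307 and 27619 in CT and 22732, 25762 and 28449 in C26, ranges that overlap. It adds genes that moved apart. The mean of H2-D1 went from 8629 to 12114 and that of H2-T23 from 3728 to 2587 (n = 8 each). Of all 17 genes, H2-Q10 included, 2 were called higher and 9 lower. The ratio of H2-Q10 to H2-D1 ran from 2.10 to 2.83 in CT and from 0.786 to 0.989 in C26, with a wide gap between the groups. Of 9 tested hepatocyte markers 2 rose and 5 fell, where 33.3% and 32.9% of all tested genes were called higher and lower. The sum of these markers ran from 1724780.0 to 1982300.0 in CT and from 786522 to 988910.0 in C26. Alb, which makes up most of that sum in CT, went from a mean of 1034280.0 to 250837 (n = 8 each). Serpina1a had means of 289387 and 288587. The part of these hepatocyte changes in the H2-Q10 fall was not tested.

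The light chain gene B2m (chromosome 2 at 122147686 to 122153083, plus strand) had 15423, 19799.5 and 21329 in CT, 12049, 14109 and 15134 in C26 and 13680.4, 15043 and 19572 in C26-CHO. All 8 C26 mice were below all CT mice. B2m fell by 0.46 (SE 0.0728, adjusted p = 3.94e-06), and by 0.27 under quantile normalization.

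**Figure D2:**
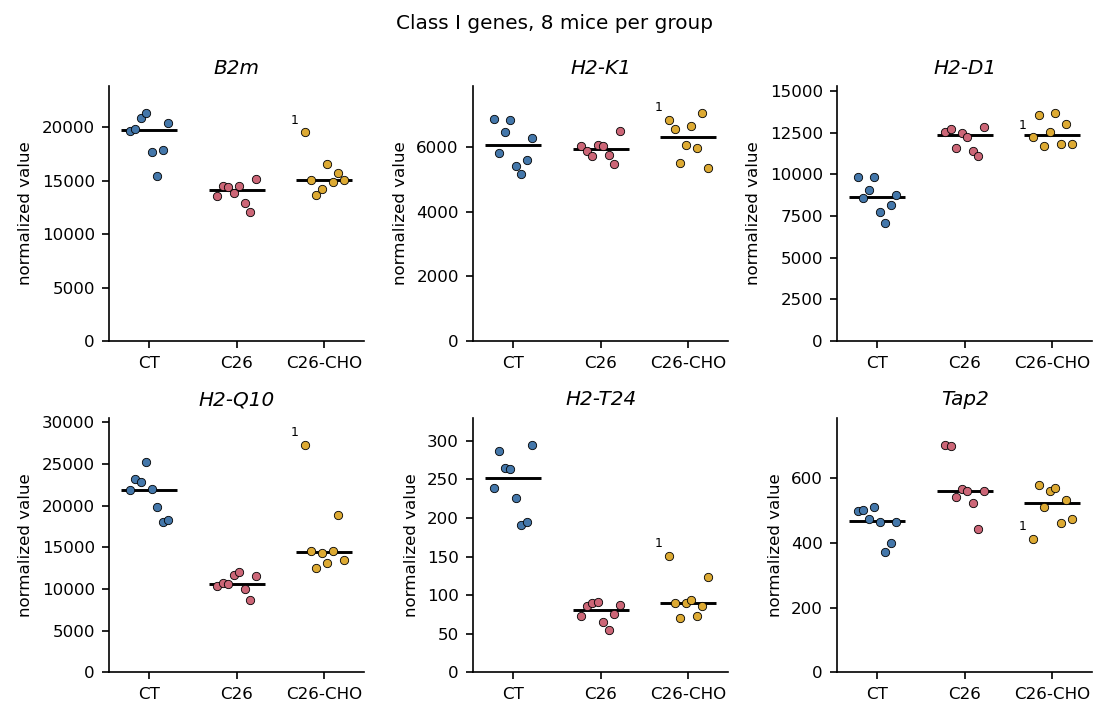
Normalized values of 6 class I genes in each mouse (points) by group, with the median as a bar and C26-CHO 1 marked "1"; axes are linear and start at 0. H2-D1 is higher and B2m, H2-Q10 and H2-T24 are lower in all C26 mice than in all CT mice, H2-K1 overlaps, and C26-CHO 1 has the highest H2-Q10 value of all 24 mice at 27308.

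The remaining H2-Q and H2-T genes encode non-classical chains, among them ligands of NK and gamma delta T cell receptors. Of 7 tested H2-Q genes 5 fell and 0 rose, and of 5 H2-T genes 2 fell and 1 rose. Over all tested genes 32.9% were called lower and 33.3% higher. H2-T24 had the largest class I difference: it had 191, 251 and 295 in CT, 54.3, 80.3 and 91.7 in C26 and 70.7, 90.1 and 151 in C26-CHO. Both tumour-bearing groups lay entirely below CT. Its difference was -1.64 (SE 0.139, adjusted p = 1.13e-10), a 3.13-fold fall. H2-T23 fell with -0.53 (SE 0.0787, adjusted p = 1.8e-06). H2-Q5, H2-Q7, H2-Q6 and H2-Q2 fell with -0.62, -0.57, -0.55 and -0.53 (adjusted p from 8.3e-05 to 0.000737). H2-Q5, a polymorphic pseudogene in the annotation, had 209, 263 and 358 in CT and 133, 173 and 211 in C26, H2-Q7 had 407, 541 and 742 in CT and 269, 346 and 531 in C26, and H2-Q6 had 451, 647 and 760.0 in CT and 326, 414 and 576 in C26. The groups overlapped in these 3 genes, with 7 (H2-Q5) and 5 (H2-Q6 and H2-Q7) of 8 C26 mice below the lowest CT mouse.

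The near copies H2-Bl and H2-K2, annotated as pseudogenes, fell with -0.54 and -0.45 (adjusted p = 0.00491 and 0.000163). H2-T10, a polymorphic pseudogene in the annotation and a relative of the gamma delta T cell receptor ligand H2-T22, rose with 0.34 (SE 0.0611, adjusted p = 2.93e-05). H2-T22 itself had 0.14 (adjusted p = 0.0774), with -0.20 (adjusted p = 0.0348) by library totals and 0.24 (adjusted p = 0.00838) under quantile normalization. H2-Q1 had -0.14 (adjusted p = 0.381), H2-Q4 -0.22 (adjusted p = 0.106), H2-T-ps -0.37 (adjusted p = 0.0846) and H2-M3, which presents formylated peptides, 0.02 (adjusted p = 0.898). H2-Q4 was called without C26 8 (-0.27, adjusted p = 0.0478) or CT 6 (-0.28, adjusted p = 0.0287), and H2-T-ps without C26 1 or C26 8 (-0.46 in each case, adjusted p = 0.03 and 0.029).

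The partners of class I showed smaller differences, 3 higher and 1 lower (B2m) of 7, against 33.3% and 32.9% over all tested genes. Tap1 and Tap2 encode the subunits of the peptide transporter. Tap2 had 370.4, 468 and 511 in CT, 444, 560.0 and 702 in C26 and 412, 522 and 579.9 in C26-CHO. It rose in C26 with 0.31 (SE 0.09, adjusted p = 0.00363), with 7 of 8 C26 mice above the highest CT mouse. Tap1 had 277, 565 and 775 in CT, 394, 491 and 571 in C26 and 362, 431 and 538 in C26-CHO, groups that overlap. Its difference was -0.14 (adjusted p = 0.4), or -0.28 (adjusted p = 0.0243) without CT 6, the lowest CT mouse.

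Tapbp, which encodes tapasin, the bridge between TAP and the heavy chain, had 1222, 1552 and 1724 in CT, 1303, 1473 and 1706 in C26 and 1352, 1521 and 1662 in C26-CHO, with a difference of -0.05 (adjusted p = 0.499). By library totals Tapbp had -0.40 and was called (adjusted p = 9.49e-06), or -0.06 relative to the median of all genes. The gene named next is a relative of Tapbp. Its relative Tapbpl, a peptide editor, rose with 0.19 (SE 0.0668, adjusted p = 0.0153). Erap1, the peptidase that trims peptides to class I length, had 1489.7, 1741 and 1984 in CT, 1419, 1558 and 1762 in C26 and 1237, 1459 and 1838 in C26-CHO. Its groups overlapped and its difference was -0.15 (adjusted p = 0.0803), called without CT 2 (-0.18, adjusted p = 0.0357).

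The class I activator Nlrc5 (chromosome 8 at 94434356 to 94527272, plus strand) had 349, 447 and 521 in CT, 447, 516 and 603 in C26 and 424, 594 and 736 in C26-CHO. It rose with 0.23 (SE 0.0983, adjusted p = 0.0443), while the groups overlapped and 4 of 8 C26 mice lay above the highest CT mouse. That call was lost with no filter on low values (adjusted p = 0.0561) and without any 1 of C26 2, 5, 6, 7 and 8 and CT 1, 2, 4, 6 and 7, with adjusted p from 0.0543 to 0.107.

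The direction of the small rises depends on the scaling. With reads scaled to library totals in place of size factors, the median of all genes in C26 vs CT was -0.34, and H2-T10, Tap2, Nlrc5 and Tapbpl had -0.01, -0.03, -0.12 and -0.16. Relative to that median they had 0.33, 0.30, 0.22 and 0.18. H2-D1 stayed above 0 with 0.15, or 0.49 relative to the median. Under library totals the class I count was 1 higher and 18 lower of 24 in place of 5 and 10. Of its calls 5.26% in place of 33.3% were in the higher direction, and the class II count stayed at 0 and 9. Erap1, H2-K1, H2-Q1, H2-Q4, H2-T-ps, H2-T22, Tap1 and Tapbp gained lower calls there. The class I median was -0.53 on that scale, or -0.19 relative to all genes. Shares of all genes called higher and lower on that scale are not given here, so the count lacks a background.

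Class II was lower at every step that the tested genes cover: the activator, the antigen-binding chains, the invariant chain and the peptide exchange factor. Ciita (chromosome 16 at 10480059 to 10528418, plus strand), the activator, had 22.02, 51.7 and 79.4 in CT, 14.9, 22.5 and 36.6 in C26 and 12.1, 27.7 and 59.04 in C26-CHO. CT and C26 overlapped, with 3 of 8 C26 mice below the lowest CT mouse. Its difference was -1.02 (SE 0.279, adjusted p = 0.00224), from 468 reads over the 8 CT libraries and 175 over the 8 C26 libraries.

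The chains of the A molecule, H2-Aa (chromosome 17 at 34282744 to 34287823, minus strand) and H2-Ab1 (chromosome 17 at 34257689 to 34269419, plus strand), fell together. H2-Aa had 169, 580.2 and 836 in CT, 76.9, 115 and 209.5 in C26 and 79.8, 169 and 484 in C26-CHO. H2-Ab1 had 209, 728 and 998 in CT, 80.9, 158 and 241 in C26 and 108, 206 and 566 in C26-CHO. For each of the 2 genes 7 of 8 C26 mice lay below the lowest CT mouse, CT 6, and C26 8 was the C26 mouse that did not. The differences were -2.06 (SE 0.337, adjusted p = 7.42e-06) and -2.04 (SE 0.327, adjusted p = 5.56e-06).

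The chains of the E molecule behaved alike. H2-Eb1 (chromosome 17 at 34305867 to 34316674, plus strand) had 194, 674 and 1069 in CT, 99.9, 150.5 and 266 in C26 and 78.8, 242 and 563 in C26-CHO. H2-Ea-ps, the E alpha gene, had 189.5, 646 and 862 in CT, 104, 139 and 208 in C26 and 78.8, 195 and 545 in C26-CHO. Again 7 of 8 C26 mice were below the lowest CT mouse. They fell with -2.06 (SE 0.359, adjusted p = 1.76e-05) and -1.93 (SE 0.33, adjusted p = 1.35e-05). Within libraries the ratios to H2-Aa had medians of 1.24 (CT) and 1.28 (C26) for H2-Ab1, 1.23 and 1.29 for H2-Eb1, and 1.099 and 1.192 for H2-Ea-ps. The ratios spread over 1.09 to 1.62 in CT and 0.787 to 1.74 in C26 for H2-Ab1, and over 1.05 to 1.35 and 0.821 to 1.49 for H2-Eb1.

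Cd74, the invariant chain that guides class II molecules to the endosome, had 660.5, 1529 and 2169 in CT, 179, 307 and 542 in C26 and 179, 431 and 1243 in C26-CHO. It was the class II gene without any overlap between CT and C26 among those tested. Cd74 had -2.20 (SE 0.321, adjusted p = 1.34e-06), a 4.58-fold fall.

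H2-DM, which exchanges the invariant chain peptide for antigen, is encoded by H2-DMa, H2-DMb1 and H2-DMb2. H2-DMa had 40.2, 76.3 and 98.5 in CT, 25.3, 42.9 and 49.1 in C26 and 22.2, 44.7 and 84.9 in C26-CHO, the smallest class II difference with -0.79 (SE 0.232, adjusted p = 0.00434). H2-DMb1 had 21.1, 60.9 and 91.6 in CT, 6.93, 19.1 and 30.6 in C26 and 6.06, 23.7 and 59.04 in C26-CHO. H2-DMb2 had 21.1, 49.8 and 86.5 in CT, 9.24, 20.2 and 25.1 in C26 and 13.1, 25.3 and 58.1 in C26-CHO. All 3 genes overlapped between CT and C26, and the latter 2 fell with -1.69 (SE 0.391, adjusted p = 0.000496) and -1.33 (SE 0.285, adjusted p = 0.000216). The ratio of H2-DMa to H2-Aa had a median of 0.127 in CT (0.102 to 0.237) and 0.338 in C26 (0.234 to 0.411), ranges that meet only at their edges. H2-DMb1 and H2-DMb2 share sequence, and reads of 1 may have been counted for the other.

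**Figure D3:**
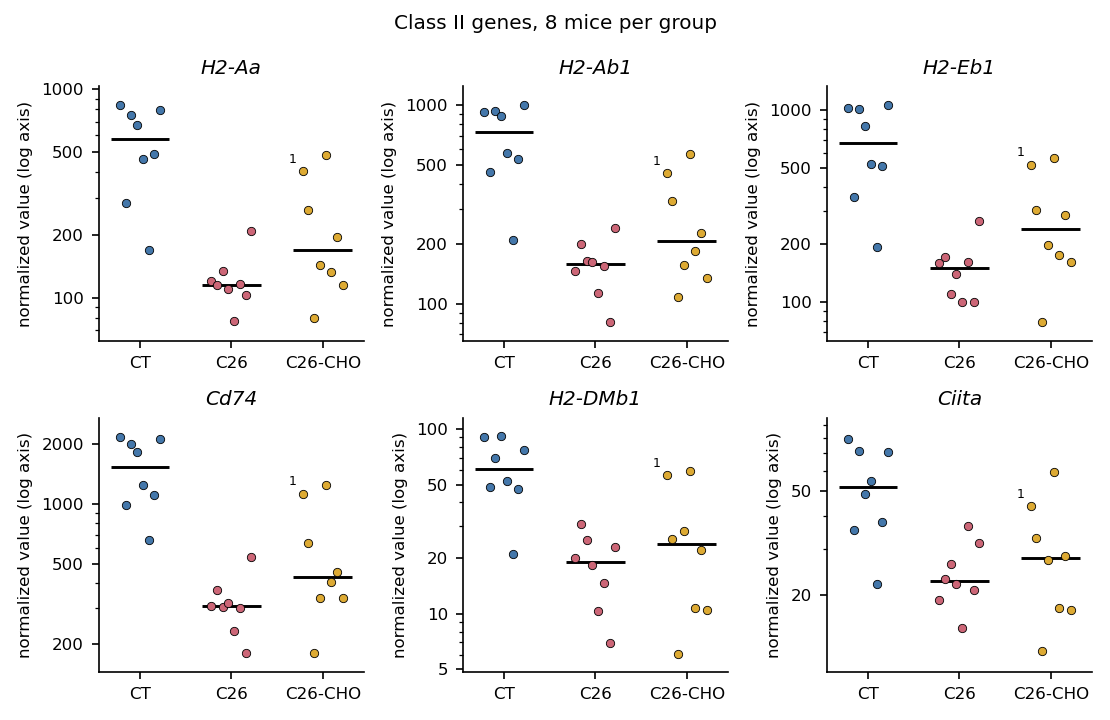
Normalized values of 6 class II genes in each mouse (points) by group on log axes, with the median as a bar and C26-CHO 1 marked "1". The C26 values of Cd74 lie below every CT value, CT 6 is the lowest CT mouse in each panel, and C26-CHO 1 and 5 are the highest C26-CHO mice in each panel.

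The 9 measured members under the filter were H2-Oa, H2-Ob, H2-Ke6 and the class I genes H2-M10.6, H2-M2, H2-M5, H2-M6-ps, H2-Q3 and H2-T3. H2-Ob, a chain of the H2-DM inhibitor H2-O that marks B cells, was just outside with a mean of 9.75. It had 8.61, 16.3 and 28.2 in CT, 2.31, 3.63 and 8.04 in C26 and 2.01, 6.03 and 24.3 in C26-CHO, with the highest C26-CHO value in C26-CHO 1. The pseudogene H2-M6-ps had 0.925, 3.09 and 4.42 in CT and 6.89, 10.96 and 15.02 in C26. The other 7 had means from 0.209 to 1.49. Just inside the filter were H2-DMb2, Ciita and H2-DMb1 with means of 32.1, 35.6 and 36.0.

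Bulk liver RNA does not tell fewer cells of a type from less RNA per cell, so markers of the cells that could carry class II were measured beside these genes. Class II chains, summed over H2-Aa, H2-Ab1, H2-Eb1 and H2-Ea-ps, had 762, 2615 and 3717 in CT and 395, 559 and 925 in C26. For the marker counts, 33.3% of all tested genes were called higher and 32.9% lower in this comparison. Kupffer cell markers (the liver macrophages) went the other way: 10 of 10 rose, and their median difference was 0.80. Their sum ran from 5712 to 8126 in CT and from 10219.8 to 13248 in C26. Monocyte markers rose in 7 of 7 tested of 8, and their sum without Fn1, which hepatocytes make too, ran from 129 to 248 in CT and from 432 to 1056 in C26. Neutrophil markers rose in 5 of 5 tested of 8.

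The same background, 33.3% higher and 32.9% lower over all tested genes, holds for the next lists, some of which had few tested genes. Among dendritic cell markers, 5 of 10 were tested: Clec9a and Batf3 rose and 3 were not called. The sum over all 10 ran from 187 to 269 in CT and from 259.9 to 304 in C26. Clec9a weighed heavily in that difference, with means of 54.7 in CT and 123.6 in C26 (n = 8 each). Zbtb46, the other large term of the sum, had 107.6 and 98.0, so the sum does not show a rise of the list as a whole. Among the untested ones Xcr1 had means of 9.05 in CT and 2.74 in C26 (n = 8 each) and Ccr7 6.41 and 2.94, both at 0 in at least 1 C26 library, while Flt3 had 4.85 and 9.99. B cell markers fell in 5 of 6 tested of 10, and the immunoglobulin gene Igkc was not called (0.10, adjusted p = 0.73). Their sum ran from 280 to 620 in CT and from 133 to 343 in C26. Without the immunoglobulin genes it ran from 57.4 to 186 in CT and from 25.3 to 60.01 in C26. Pax5, which defines the B lineage, was at 0 in 4 of 8 C26 libraries and in 0 of 8 CT libraries. T and NK cell markers fell in 2 of 2 tested of 14, and their sum ran from 81.4 to 247 in CT and from 27.5 to 81.8 in C26, with Cd8a, Cd2 and Gzmb each at 0 in 4 C26 libraries. Sinusoidal endothelial markers had 6 of 8 higher and 1 lower. The part of these cell types in the class II fall was not tested.

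**Figure D4:**
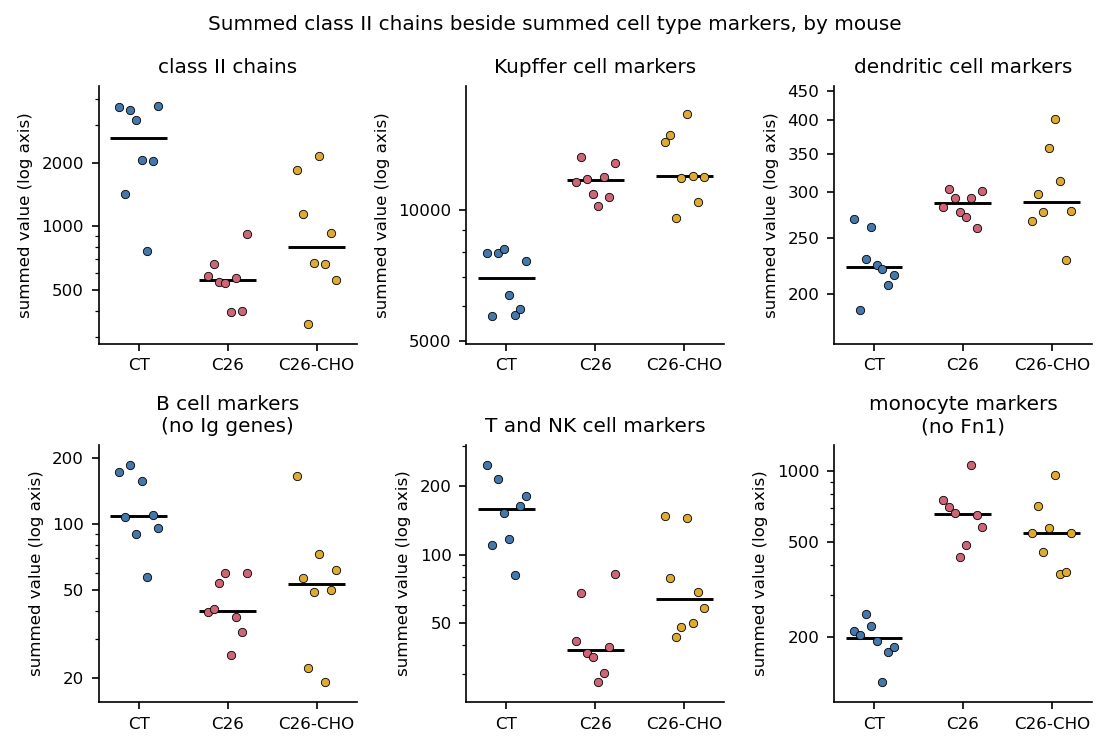
Sums of normalized values by mouse (points; bars are medians; log axes) for the 4 class II chains and for marker lists of 5 cell types in CT, C26 and C26-CHO. The medians of the class II, B cell and T and NK cell sums are lower in C26 than in CT, whereas those of the Kupffer cell, monocyte and dendritic cell sums are higher.

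The second comparison, C26-CHO against C26, asks what cholestyramine changed in tumour-bearing mice. H2-Q10 was higher with cholestyramine, and no other member was called. Class II estimates were all above 0, at 0.18 to 0.74, with intervals too wide for any call. Of all 14040 tested genes, 7059 had an estimate above 0. Over all genes 0.705% were called, 0.556% higher and 0.15% lower, so few calls are found in any set of this size. Of class I 1 of 24 was called and of class II 0 of 9, with medians of 0.07 and 0.60 against 0.001 for all genes. An unadjusted p under 0.05 was found for 5 class I genes (H2-Q10, B2m, H2-Q2, H2-T23 and H2-T24) and 2 class II genes (Cd74 and H2-Eb1), all higher in C26-CHO, and for 1832 of 14040 genes. DESeq2 and edgeR likewise called 0 class II members.

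All 8 C26-CHO mice had more H2-Q10 than the highest C26 mouse, at 12541 and above against 12074.8 and below. The difference was 0.55 (SE 0.119, adjusted p = 0.0262), a 1.46-fold rise. C26-CHO 1 had 27308, above every CT mouse, and the other 7 ran from 12541 to 18852 with a median of 14378. Without C26-CHO 1 the difference was 0.43 (adjusted p = 0.0231). The call was lost without C26 1 (0.54, adjusted p = 0.0708), C26 2 (0.55, adjusted p = 0.0533), C26 6 (0.53, adjusted p = 0.053) or C26 7 (0.504, adjusted p = 0.0658), and likewise once C26-CHO 7 was left out (0.51, adjusted p = 0.0766). It was also lost under quantile normalization (0.47, adjusted p = 0.0826) and when CT was left out of the fit (adjusted p = 0.0949), where 10 genes in all were called in place of 99. The H2-Q10 to H2-D1 ratio in C26-CHO ran from 0.958 to 2.24, with C26-CHO 1 at the top, and overlapped C26 at its lower end.

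Other class I genes differed little between C26-CHO and C26. H2-D1 had 0.05 with a 95% interval of -0.08 to 0.18 (or -0.03 under quantile normalization), H2-K1 0.07 with -0.07 to 0.21, B2m 0.17 with 0.02 to 0.32 (adjusted p = 0.313), and Tap2 -0.16 with -0.34 to 0.03. Estimates were above 0 for 21 of 24 class I genes, the exceptions being Tap1 (-0.16), Tap2 and Erap1 (-0.05). Over all tested genes 7059 of 14040 were above 0. Without C26-CHO 1 the estimates of H2-M3, H2-Q6, H2-T10 and H2-T22 also lay below 0, at -0.003, -0.007, -0.001 and -0.013.

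Class II values spanned a wider range in C26-CHO than in C26, a difference in spread that was not tested. Cd74 had 1123 in C26-CHO 1 and 1243 in C26-CHO 5, within the CT range, against 179 in C26-CHO 3, beside the lowest C26 value of 179. For Cd74, H2-Aa and H2-Ab1 3 of 8 C26-CHO mice lay above the highest C26 mouse, and for H2-Eb1 and H2-Ea-ps 4 of 8. The difference was 0.69 for Cd74 with a 95% interval of 0.03 to 1.35 (adjusted p = 0.354), 0.74 for H2-Eb1 with 0.00 to 1.48 (adjusted p = 0.381) and 0.68 for H2-Aa with -0.01 to 1.38 (adjusted p = 0.396). Without C26-CHO 1 these 3 had 0.52, 0.58 and 0.53, and without C26-CHO 5 0.49, 0.57 and 0.49. The other class II genes had 0.61 (H2-Ab1), 0.60 (H2-Ea-ps), 0.55 (H2-DMb2), 0.29 (H2-DMb1), 0.18 (H2-DMa) and 0.18 (Ciita). Sums of B cell markers without immunoglobulin genes ran from 19.01 to 165 in C26-CHO, highest in C26-CHO 1, and sums of T and NK cell markers from 43.4 to 147, also highest in C26-CHO 1. Kupffer cell and dendritic cell marker sums ran from 9576 to 16579.7 and from 229 to 401. limma, DESeq2 and edgeR called 0 of these 10 and 5 markers in C26-CHO vs C26, and 0 of them had an unadjusted p under 0.05. Among monocyte markers 1 of 7, Chil3, was called and fell with -2.02 (adjusted p = 0.0363 by limma), and DESeq2 and edgeR each called 1 of 5 neutrophil markers, of which limma called 0 with an unadjusted p under 0.05 for 3. The neutrophil marker sum ran from 289.9 to 1085 in C26 and from 188 to 536 in C26-CHO. Of all 65 tested markers limma called 1 and gave an unadjusted p under 0.05 for 9. The part of these cells in the spread of class II was not tested.

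**Figure D5:**
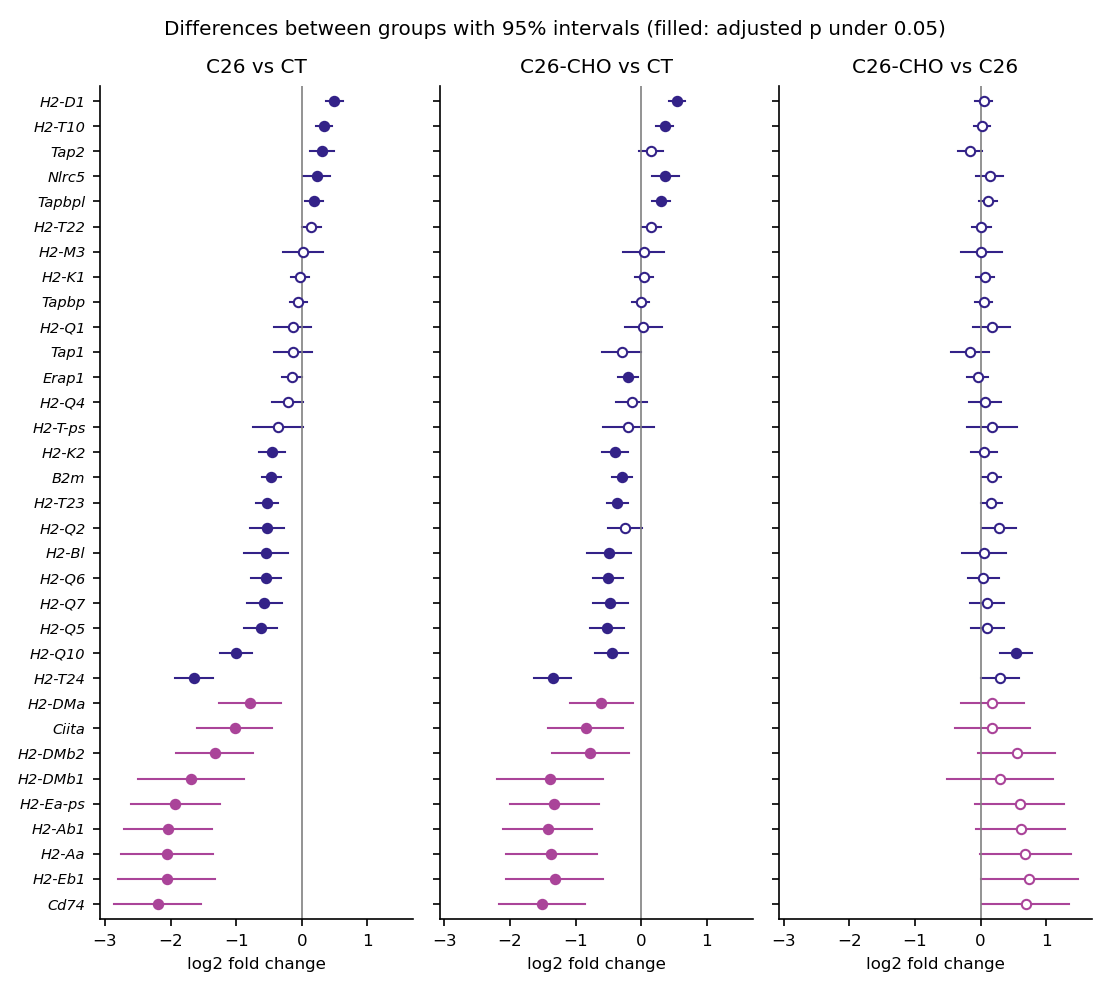
Log2 fold changes (points) with 95% intervals (lines) of the 33 tested genes in the 3 comparisons, class I in blue and class II in purple, filled where the adjusted p is under 0.05. All class II points lie left of 0 in both comparisons with CT and right of 0 in C26-CHO vs C26, where H2-Q10 is the only filled point.

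The third comparison, C26-CHO against CT, shares its groups with the 2 others, so its values are given beside them and are no separate evidence. Over all genes 62.2% were called, 31.3% higher and 30.9% lower. Class I had 4 higher and 10 lower of 24 (median -0.20), and class II 0 higher and 9 lower of 9 (median -1.33). With library totals class I had 1 higher and 16 lower, on a scale where the median of all genes was -0.305. H2-D1, H2-T10, Nlrc5 and Tapbpl were higher with 0.54, 0.36, 0.37 and 0.30, Tapbpl turning to -0.01 with library totals, under which H2-T10 (0.05, adjusted p = 0.561) and Nlrc5 (0.06, adjusted p = 0.655) lost their calls. H2-T24 was lower with -1.35, H2-Q10 with -0.45, H2-T23 with -0.37 and B2m with -0.30, a call that B2m lost under quantile normalization (-0.17, adjusted p = 0.0685). Erap1 was lower with -0.20 (adjusted p = 0.0257), a call lost under quantile normalization (-0.11, adjusted p = 0.23) and without C26-CHO 2, CT 6 or CT 8 (adjusted p = 0.0683, 0.0525 and 0.0577). H2-Q2, H2-Q4 and Tap1 had -0.25, -0.14 and -0.30 and were not called. H2-Q2 was called without C26-CHO 1 or CT 5 (-0.31 each, adjusted p = 0.037 and 0.0366). Tap1 was called without C26-CHO 1 (-0.34, adjusted p = 0.0421) or CT 6 (-0.44, adjusted p = 0.000906) and by DESeq2 and both edgeR tests (adjusted p from 0.0242 to 0.0371). H2-T22, with 0.16 (adjusted p = 0.0608), was called without any 1 of C26 8, C26-CHO 3 and CT 1, 3 and 4 (0.16 to 0.18, adjusted p from 0.0402 to 0.0488), under quantile normalization (0.215, adjusted p = 0.0161) and by edgeR with TMM (0.16, adjusted p = 0.0484), and had -0.15 with library totals.

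Cd74 was lower than in CT with -1.51 in C26-CHO, H2-Ab1 with -1.43, H2-DMb1 with -1.39, H2-Aa with -1.37, H2-Ea-ps with -1.33, H2-Eb1 with -1.31 and Ciita with -0.85 (adjusted p from 0.00022 to 0.0104). H2-DMb2 with -0.77 (adjusted p = 0.0207) lost its call without C26-CHO 3 (-0.64, adjusted p = 0.0523) or CT 1 (-0.64, adjusted p = 0.0524). H2-DMa with -0.60 (adjusted p = 0.026) lost it without C26-CHO 3, 7 or 8 or CT 8 (-0.55 to -0.47, adjusted p from 0.0515 to 0.0687) and in edgeR with TMM scaling (adjusted p = 0.0523).

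Class II genes also varied together from mouse to mouse within CT and within C26-CHO. Relations of 11 pairs of genes were computed in each of the 3 groups of 8 mice, and 12 of the 33 passed adjustment over all 33 (two-sided exact permutation tests, whose smallest possible p is 2.48e-05). H2-Aa and H2-Ab1 had a Pearson r of 0.977 in CT and 0.992 in C26-CHO (exact permutation p = 0.000372 and 4.96e-05, adjusted p = 0.00307 and 0.00109; Spearman rho 0.905 and 0.976, exact p = 0.00456 and 0.000397), and 0.72 in C26 (exact permutation p = 0.0537, adjusted p = 0.0886). Cd74 and H2-Aa had 0.973 and 0.985 in CT and C26-CHO (exact permutation p = 9.92e-05 and 7.44e-05, adjusted p = 0.00109 for both; rho 0.976 in both, exact p = 0.000397), and the activator Ciita and Cd74 had 0.95 and 0.942 (exact permutation p = 0.000843 and 0.000694, adjusted p = 0.00464 and 0.00458; rho 0.952 and 0.976, exact p = 0.00114 and 0.000397). Without the 2 mice farthest from the median of the first gene these 6 values of r were 0.96 and 0.975, 0.978 and 0.952, and 0.873 and 0.84. With 6 mice the smallest p is 0.00139, and 0 of 33 passed.

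Class II also moved with other genes within groups. Cd74 and the Kupffer cell marker Clec4f had r = 0.888 in C26-CHO (exact permutation p = 0.00404, adjusted p = 0.0148; rho 0.833, exact p = 0.0154; 0.771 without the 2 mice) and 0.769 in CT (exact permutation p = 0.0258, adjusted p = 0.0569). Cd74 and B2m had 0.827 in CT and 0.847 in C26-CHO (exact permutation p = 0.0111 and 0.00511, adjusted p = 0.0333 and 0.0169; rho 0.524 and 0.881, exact p = 0.197 and 0.00724; 0.844 and 0.794 without the 2 mice). Cd74 and the B cell gene Cd79a had 0.683, 0.59 and 0.593 in CT, C26 and C26-CHO and did not pass (exact permutation tests, adjusted p from 0.101 to 0.172). In class I, B2m passed with H2-K1 (r = 0.87, exact permutation p = 0.00241, adjusted p = 0.00992; rho 0.762, exact p = 0.0368; 0.72 without the 2 mice) and with H2-D1 (r = 0.895, exact permutation p = 0.00196, adjusted p = 0.00924; rho 0.857, exact p = 0.0107; 0.649 without the 2 mice) in CT. Tap1 and H2-K1 passed in CT too (r = 0.77, exact permutation p = 0.0144, adjusted p = 0.0396; rho 0.69, exact p = 0.0694; 0.768 without the 2 mice). Nlrc5 and H2-K1 had 0.443, 0.243 and 0.323 in CT, C26 and C26-CHO and did not pass (exact permutation tests, adjusted p from 0.333 to 0.619), nor did H2-Q10 and Alb (0.732, 0.187 and -0.216, exact permutation tests, adjusted p from 0.0747 to 0.644). The labels used here give no batch within which these values could be taken again.

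Over all 24 libraries, which also share the difference between groups, the 5 tested genes most like Cd74 by Pearson r of log2 values were H2-Ab1 (0.988), H2-Ea-ps (0.984), H2-Eb1 (0.98), H2-Aa (0.979) and the interferon-induced chemokine Cxcl9 (0.963). Those most like B2m included Igtp (0.959), Ifit3 (0.948), Ifit1 (0.943) and Gm12250 (0.937). Igtp, Ifit3 and Ifit1 are in the interferon response lists described below. Among the members H2-T23 was the most like B2m (0.936). H2-D1 had -0.52 with B2m and H2-Q10 0.893. These values describe the libraries and carry no test.

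The interferon pathway that induces MHC genes had mostly lower response genes and mostly higher signalling genes in C26. The background for this and the following lists is 33.3% higher and 32.9% lower over all tested genes. Of 11 measured interferon gamma response genes of 14 listed, 7 fell and 2 rose (median -1.21). The GTPases Gbp4 and Igtp fell with -2.10 (SE 0.261, adjusted p = 1.05e-07) and -1.54 (SE 0.211, adjusted p = 4.71e-07), and the adhesion molecule Icam1, which other inflammatory signals induce too, rose with 2.29 (SE 0.11, adjusted p = 2.07e-15). Cxcl9, named here because its pattern was like that of Cd74, fell by 3.73. Of 15 type I interferon response genes 12 fell and 2 rose (median -1.46), with Ifit1 at -2.43, Ifit3 at -2.36 and the signal transducer Stat2 at 0.69. In receptor signalling 6 of 9 rose (median 0.52). Socs1, the feedback inhibitor of the receptor's kinases, rose with 5.24 (SE 0.295, adjusted p = 5e-14), the phosphatase Ptpn2 with 1.32 (SE 0.105, adjusted p = 3.46e-11) and the kinase Jak1 with 0.54 (SE 0.0569, adjusted p = 6.21e-09).

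Of the transcription factors of MHC genes 4 were higher and 3 lower of 13 (median 0.10). Both shares lie below the 33.3% higher and 32.9% lower over all tested genes. The myeloid factors Spi1 and Irf8 rose with 1.01 and 0.75 (adjusted p = 8.98e-07 and 1.61e-05). Rfx5 and Irf1, named after their values were seen as the best known factors of class II and class I promoters, had -0.23 and 0.17 (adjusted p = 0.126 and 0.288). Also named after their values were seen, Rfxank and Nfya were higher with 0.33 and 0.50 (adjusted p = 0.00363 and 0.000127). Rfxap and Nfyc were lower with -0.43 and -0.185 (adjusted p = 8.72e-05 and 0.013).

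Of the genes of peptide supply and loading for class I, 3 rose and 6 fell of 12 (median -0.14), against 33.3% and 32.9% over all tested genes. The chaperone Calr, the loading partner Pdia3 and the translocon subunit Sec61a1 rose with 1.30, 1.00 and 0.80 (adjusted p from 5.86e-12 to 4.14e-10). The 6 that fell, named after their values were seen, were the immunoproteasome subunits Psmb8, Psmb9 and Psmb10 (-0.34, -0.58 and -0.60), the proteasome activator subunits Psme1 and Psme2 (-0.86 and -0.23) and the aminopeptidase Npepps (-0.44).

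The list for class II processing, which holds proteases and also ligases, had 8 higher and 1 lower of 10 (median 0.63), while the class II chains fell. The endosomal proteases Lgmn and Ctsl rose with 2.01 (SE 0.114, adjusted p = 5.17e-14) and 1.498 (SE 0.107, adjusted p = 4.37e-12). March8, a ligase that removes membrane proteins from the cell surface, fell with -0.84 (SE 0.0476, adjusted p = 5.69e-14). March1, the other ligase of the list, named after its value was seen, rose with 1.13 (SE 0.212, adjusted p = 4.33e-05). Hepatocytes make several of these proteases too.

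Of class I-like genes outside the H2 names, 3 rose and 3 fell of 8 tested of 9, near the 33.3% and 32.9% over all tested genes. Cd1d1, which presents lipids to NKT cells, fell with -0.62 (SE 0.0858, adjusted p = 5.33e-07), while Hfe, a regulator of iron uptake, and the plasma protein gene Azgp1 rose with 0.33 and 0.29. Co-stimulation genes had 3 higher and 0 lower of 4 tested of 9: Icam1 as above, Icosl with 0.73 and Cd86 with 0.41 (adjusted p = 0.00543 and 0.0292). In C26-CHO vs C26 limma called 0 of the 79 tested genes of these 8 lists, with an unadjusted p under 0.05 for 15 of them, while DESeq2 called 3 and edgeR 1.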

How the data were processed

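Liver RNA of 24 CD2F1 mice, 8 in each of the groups CT, C26 and C26-CHO by their labels, was sequenced by the authors. Per the submitters' processing notes, bcl2fastq 2.17, FastQC, Trimmomatic 0.38, STAR 2.6.1d, GRCm38 and DESeq2 1.22.2 were used. How reads were assigned to genes, with which gene models and whether by strand, is not given in the sources used here. The authors deposited a normalized signal per Ensembl gene, the read count divided by a size factor of the library. From its steps whole reads were recovered for 100% of values (tolerance 0.001 reads), and 0 columns were left unused. GENCODE M21 gave a symbol for 22009 of 22392 genes. Tests used limma 3.58.1 in R 4.3.3 on log2(value + 1) of genes with a mean of at least 10, with a threshold of 0.05 on the adjusted p. edgeR 4.0.16 and DESeq2 1.42.0 on the recovered reads, other filters, pseudocounts, scalings and groups of libraries were alternatives, and the procedure was tested on simulated data. Ratios, sums and relations used Python 3.11.15.

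The members, lists and tests were chosen with earlier results of these data known. Every tested member is named with its change in C26 vs CT; values by group are given for 16 core members and for up to 4 more per class with the largest called change; of each pathway list the 3 called genes with the smallest p are named, apart from 1 gene that is not reported here. The classes follow gene names, with B2m, Tap1, Tap2, Tapbp, Tapbpl, Erap1 and Nlrc5 in class I and Cd74 and Ciita in class II. A planned relation of Cd74 with Flt3 was not computed because Flt3 lay under the filter. The labels used here do not say whether replicate numbers pair mice across groups, and the main fit did not pair them. Where nothing in the labels tells separate handling of mice apart, p-values measure the spread between these libraries.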

Additional observations from a re-analysis of the deposited data

Results flagged for a closer look

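In each group of 8 mice the most extreme value of every tested member was compared with the range of its group, and 7 of 99 such groups held a mouse whose gap to its nearest neighbour was over 0.526 of the range; chance alone flags about 1 group in 20. H2-Q10 in C26-CHO 1 was at a normalized value of 27307.7, against 12541 to 18852 in the other C26-CHO mice. H2-Aa and H2-Eb1 in C26 8 were at 209.5 and 266, against 76.9 to 134 and 99.9 to 171 in the other C26 mice, and H2-T22 in the same mouse was at 1542, against 1209.9 to 1325. In CT 6, H2-T22 was at 861 (others 1122 to 1288) and Tapbp at 1222 (others 1502 to 1724). H2-M3 in C26-CHO 5 was at 94.1, against 45.1 to 67.7.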

How the results depend on the processing

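All 9 tested class II members were lower and called in C26 vs CT under each alternative run and without each mouse, and the class I count ran from 14 to 16 when 1 mouse was left out. In C26-CHO vs CT these leave-one-out counts ran from 13 to 16 for class I and from 7 to 9 for class II. In C26-CHO vs C26 the number of genes called was 99, but 326 with DESeq2, 10 with only the 2 groups compared, and 23 (without C26-CHO 7) to 273 (without C26-CHO 3) when 1 mouse was left out. The class I count there was 0 with only the 2 groups, 0 under quantile normalization, and 0 to 1 without 1 mouse. Of 33 relations, 12 passed with 8 mice and 0 without the 2 mice farthest from the median, where fewer mice limit the p.

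Signs of log2 fold changes turned as follows; the cause was not tested. In C26 vs CT, library totals gave -0.32 for H2-M3, -0.009 for H2-T10, -0.20 for H2-T22, -0.12 for Nlrc5, -0.034 for Tap2 and -0.16 for Tapbpl, and quantile normalization gave 0.24 for H2-K1, -0.089 for H2-M3 and 0.073 for Tapbp. In C26-CHO vs C26, quantile normalization gave -0.034 for H2-D1 and -0.02 for H2-T22. In C26-CHO vs CT, library totals gave -0.26 for H2-K1, -0.27 for H2-M3, -0.28 for H2-Q1, -0.15 for H2-T22, -0.155 for Tap2 and -0.009 for Tapbpl, quantile normalization gave -0.067 for H2-M3 and 0.08 for Tapbp, and edgeR with TMM gave 0.006 for Tapbp. Under quantile normalization the class I calls were 7 higher and 11 lower in C26 vs CT and 6 higher and 9 lower in C26-CHO vs CT. The class I medians there were -0.13 and -0.14, against -0.01 and -0.018 for all genes. Shares of all genes by direction are not given for this setting.

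Leaving out 1 mouse turned signs of small differences only: in C26 vs CT H2-K1 ran from -0.055 to 0.004 and H2-M3 from -0.058 to 0.086. In C26-CHO vs C26 H2-Bl ran from -0.031 to 0.143, H2-M3 from -0.078 to 0.071, H2-Q4 from -0.014 to 0.123, H2-Q6 from -0.013 to 0.104, H2-T10 from -0.011 to 0.049 and H2-T22 from -0.013 to 0.049. In C26-CHO vs CT H2-M3 ran from -0.055 to 0.094, H2-Q1 from -0.028 to 0.091 and Tapbp from -0.051 to 0.022.

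With the replicate number as a replicate block, 9643 genes were called in C26 vs CT (9305 without it), among them 17 class I and 9 class II members. C26-CHO vs C26 then had 97 (99 without it), 1 and 0, and C26-CHO vs CT 9079 (8739 without it), 15 and 9. The block gained calls for Erap1 (-0.15, adjusted p = 0.0214) and H2-T-ps (-0.37, adjusted p = 0.0191) in C26 vs CT and for Tap1 (-0.30, adjusted p = 0.0205) in C26-CHO vs CT. Deviations of same-numbered mice of CT and C26 correlated from -0.107 to 0.165, with a median of 0.091 against -0.002 for other numbers. In C26-CHO vs CT these medians were 0.091 and -0.032, and in C26-CHO vs C26 0.003 and -0.000353. Of 8 mice, 2, 2 and 1 correlated best with their own number in these comparisons, in this order. Whether mice of the same number were handled together was not tested.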
